A study of Homo sapiens with 9 samples.

Results

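The genes described here are the collagens, the laminins and the proteins that assemble, link and crosslink them. They were taken from the gene table by name: every collagen alpha chain, every laminin chain, LOX and the LOX-like genes LOXL1 to LOXL4, and NID1, NID2, HSPG2, AGRN, FN1, SPARC, SERPINH1, P4HA1, P4HA2, PLOD1, PLOD2 and PLOD3. The rule found 73 members among 40332 gene symbols, of which 24 encode basement membrane components and 11 encode fibrillar collagens. RNA-seq was done on wild-type cells of H1, 1 line of human embryonic stem cells, with 3 libraries in each of 3 culture conditions per the labels. The series text speaks of triplicate samples of these cells and also of duplicate RNA-seq, so whether the 3 libraries of a group are 3 separate samples was not settled. Cells of 1 condition were grown in N2B27, a defined basal medium, with 5 µM EPZ-6438 for 3 days ("treated cells"). Cells of another were kept in N2B27 alone ("N2B27 cells"), and the third set was kept in PXGL ("PXGL cells"), a medium that keeps human pluripotent cells in a naive state. EPZ-6438 blocks EZH2, the enzyme of Polycomb repressive complex PRC2 that places a repressive methyl mark on histone H3. The names of the N2B27 libraries also carry PXGL, the medium of the parent culture. The time spent in N2B27 alone, the surface the cells grew on and any feeder cells are not stated in the sources used here. The series asks whether EZH2 and PRC2 hold pluripotent cells back from a primitive endoderm fate.

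Basement membranes are thin sheets that epithelial cells lay down under themselves. Laminin trimers, each of 1 alpha, 1 beta and 1 gamma chain, form the first network at the cell surface, type IV collagen forms the second, and nidogens, perlecan (HSPG2) and agrin (AGRN) tie the networks together and to the cell. Fibrillar collagens instead form the rope-like fibrils of connective tissue. Collagen chains are hydroxylated in the endoplasmic reticulum by prolyl (P4HA) and lysyl (PLOD) hydroxylases, folded with the chaperone HSP47 (SERPINH1), and crosslinked outside the cell by lysyl oxidases. In the early embryo the primitive endoderm and its parietal derivative are known for secreting laminin and type IV collagen, and pluripotent cells make laminin themselves.

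Type IV collagen genes lie head to head in pairs, so a pair is read outward from the stretch between its starts. The RefSeq promoter table (GRCh38.p14) held 56 of the 73 members. The 3 stretches below are shown because the results return to these genes. They are the 126 bases between the starts of COL4A1 and COL4A2 (chr13:110307158-110307283, plus strand), the 250 bases before the COL4A5 start in the pair COL4A5 and COL4A6 (chrX:108439588-108439837, plus strand, starts 379 bases apart) and the 250 bases before the start of FN1 (chr2:215436069-215436318, minus strand). Capitals mark matches, on either strand, to the letters CCAAT, to the letters GGGCGG and to the palindrome TGACGTCA.
COL4A1-COL4A2: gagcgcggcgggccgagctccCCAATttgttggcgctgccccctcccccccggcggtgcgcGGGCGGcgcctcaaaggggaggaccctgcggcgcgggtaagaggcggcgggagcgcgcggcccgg
COL4A5-COL4A6: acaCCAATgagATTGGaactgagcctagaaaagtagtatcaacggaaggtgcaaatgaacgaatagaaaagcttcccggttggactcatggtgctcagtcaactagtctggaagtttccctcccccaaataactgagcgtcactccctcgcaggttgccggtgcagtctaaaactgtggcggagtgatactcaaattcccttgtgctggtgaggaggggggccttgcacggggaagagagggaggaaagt
FN1: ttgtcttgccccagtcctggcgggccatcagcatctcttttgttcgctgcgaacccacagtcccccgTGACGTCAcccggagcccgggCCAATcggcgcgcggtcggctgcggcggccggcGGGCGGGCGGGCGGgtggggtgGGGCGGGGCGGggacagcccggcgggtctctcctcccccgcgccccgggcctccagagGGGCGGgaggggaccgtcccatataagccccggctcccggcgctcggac
The COL4A1-COL4A2 stretch was 80.2% G and C, with 1 CCAAT and 1 GGGCGG. Windows of that length before 35116 RefSeq starts held CCAAT in 21.1% and GGGCGG in 34.6% of cases. The COL4A5-COL4A6 stretch was 51.2% G and C, with 2 CCAAT and no GGGCGG. It ends short of the COL4A6 start used here, the nearer of 2 listed, so the bases next to that start were not searched. Among 250-base windows 32.0% held CCAAT and 42.6% held GGGCGG, and their median G and C share was 58.0%. The FN1 stretch was 76.4% G and C, with 1 CCAAT, 1 TGACGTCA, a motif found in 1.65% of windows, and 6 GGGCGG, some of which share bases. TATAAA was also searched for and was in none of the 3 stretches. The matches describe letters only.

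The libraries held 14482105 to 18358530 counts, 14719626 to 16479602 in treated cells, 14482105 to 15295208 in N2B27 cells and 17499688 to 18358530 in PXGL cells. At this depth 3 counts are 0.163 to 0.207 CPM, the count scaled to library size with no correction for gene length. All 8 general pluripotency markers were above 5 CPM in every group, and 9 of 10 naive markers were above 5 CPM in each. PXGL replicate 1 stood apart from its group: its log2 level minus that of the other replicates had a median of 0.26 in the shortest quintile of 10720 genes and -0.27 in the longest quintile. Matrix transcripts are long, and 29 of the 38 members at 5 CPM or more in PXGL were lower in that library, with a median of -0.16 against 0.02 for all such genes. Member counts and fold changes against PXGL are therefore also given without this library. The part of transcript length in the PXGL comparisons was not tested.

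**Figure D1:**
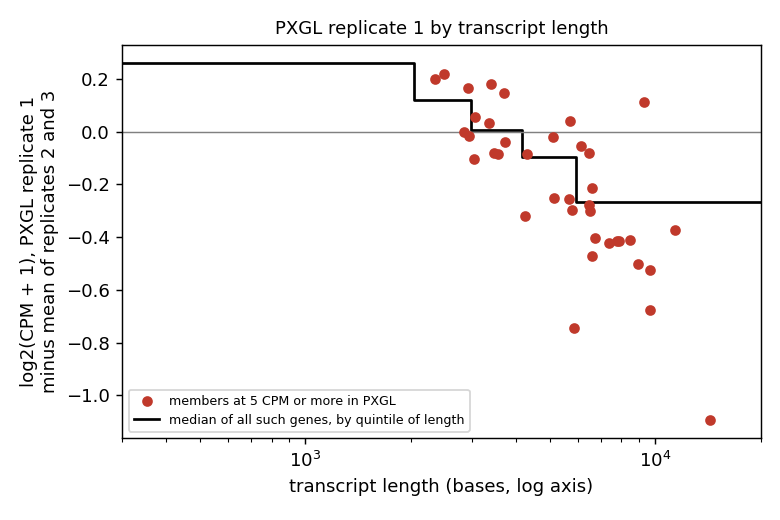
Difference in log2(CPM + 1) between PXGL replicate 1 and the mean of PXGL replicates 2 and 3 (vertical) against transcript length in bases (horizontal, log axis). Points are the 38 members at 5 CPM or more in PXGL; the stepped line is the median of all 10720 such genes in each quintile of length, 0.26 in the shortest and -0.27 in the longest.

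With EPZ-6438, most matrix genes that changed were higher. Of the 62 members with enough counts to test, 29 rose and 6 fell in treated cells against N2B27 cells (edgeR quasi-likelihood test, adjusted p under 0.05), and 27 did not pass. Among all 15179 genes tested 24.7% passed, 14.2% as higher and 10.6% as lower, and among the members 46.8% as higher and 9.68% as lower. In 45 of the 62 members the 3 treated libraries did not overlap the 3 N2B27 libraries, against 46.4% of all genes. The members' median log2 fold change was 0.44, beside 0.01 over all genes. A member that reached the filter only through the group where it is high had to differ, so these shares describe the expressed part of the family. Without PXGL replicate 1, which enters this comparison only through the shared estimate of spread, the filter and the scaling, 34 members rose and 6 fell. In that fit 25 members did not pass and 8 were not tested, against 11 not tested with all libraries. More of all genes passed in it too, as the last section gives. Member counts without this library, here and below, have no share of all genes beside them. The 8 general pluripotency markers moved in the same comparison: all were called lower in treated cells, with a median log2 fold change of -0.35. They summed to 5305 to 5341 CPM in treated, 6566 to 6598 in N2B27 and 4139 to 4533 in PXGL cells. The 10 naive markers went both ways, with 5 called higher in treated cells, 3 lower and 2 not called, at a median of 0.25. Naive markers summed to 2768 to 2832 CPM in treated, 2646 to 2668 in N2B27 and 3366 to 3973 in PXGL cells. The part of either marker list in the matrix changes was not tested. These are bulk samples, in which fewer cells of a type and less RNA per cell cannot be told apart.

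**Figure D2:**
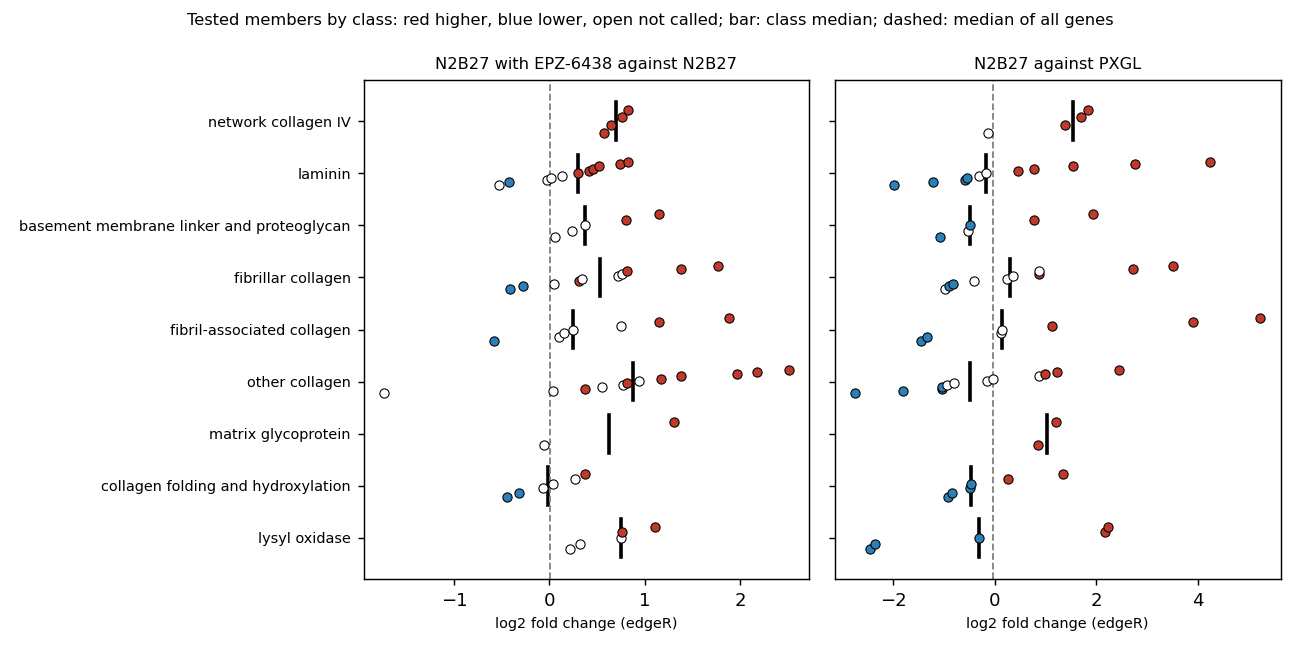
Log2 fold change of the 62 tested members (horizontal) by class (vertical), in treated against N2B27 cells (left) and in N2B27 against PXGL cells (right). Red points are higher, blue points lower and open points not called; the black bar is the class median and the dashed line the median of all genes. All 4 tested type IV collagen genes are red on the left, and the classes spread to both sides on the right.

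Type IV collagen rose in each chain that could be tested. All 4 tested chains were called higher in treated cells, where 14.2% of all genes were. Their median log2 fold change was 0.70, with a range of 0.58 to 0.83. COL4A1, a chain of the common network, had 126, 126 and 131 CPM in treated cells, against 90.2, 84.9 and 81.8 CPM in N2B27 cells and 18.9, 26.5 and 26.6 CPM in PXGL cells. Its 3 groups did not overlap and stood in the order treated, N2B27, PXGL (1.49-fold, log2 0.58 ± 0.10, adjusted p = 0.000273 for treated against N2B27). COL4A2, its partner in the same trimer and its neighbour across the 126-base stretch, had 115, 115 and 119 CPM in treated cells, against 69.1, 66.4 and 71.6 CPM in N2B27 cells and 22.7, 26.4 and 30.0 CPM in PXGL cells. The groups stood in the same order, and COL4A2 was 1.69-fold higher in treated than in N2B27 cells (log2 0.76 ± 0.08, adjusted p = 4.42e-06). COL4A5, a chain of trimers found in kidney and skin basement membranes, had 38.1, 36.5 and 39.2 CPM in treated cells, against 21.8, 20.2 and 22.1 CPM in N2B27 cells and 22.4, 23.99 and 23.5 CPM in PXGL cells. Here the treated libraries were above the rest, and N2B27 and PXGL cells lay close together (log2 0.83 ± 0.09, adjusted p = 3.15e-06). COL4A6, the head-to-head neighbour of COL4A5, had 11.9, 10.8 and 10.2 CPM in treated cells, against 6.34, 6.68 and 8.002 CPM in N2B27 cells and 1.70, 2.68 and 2.06 CPM in PXGL cells. Its treated libraries were again the highest (log2 0.65 ± 0.17, adjusted p = 0.011), but the call was lost without treated replicate 1 or without N2B27 replicate 1, at log2 0.58 in both cases. COL4A3 and COL4A4, the third pair, were below the filter.

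In N2B27 against PXGL cells the chains of a head-to-head pair did not always give the same call. COL4A1 and COL4A2 were both higher in N2B27 cells, 3.57-fold and 2.62-fold (COL4A1 log2 1.83 ± 0.10, adjusted p = 2.26e-10, and 1.69 without PXGL replicate 1). COL4A2 had a log2 fold change of 1.39 ± 0.09, adjusted p = 1.19e-09, and 1.29 without PXGL replicate 1. COL4A6 was also higher, at log2 1.70 ± 0.20, adjusted p = 1.85e-06, and 1.56 without PXGL replicate 1. COL4A5 was not called, at log2 -0.12 ± 0.09, adjusted p = 0.257, and -0.15 without PXGL replicate 1. The difference between the members of a pair was not tested.

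Among laminins, 6 of 11 tested chains rose in treated cells, 1 fell and 4 did not pass, with a median log2 fold change of 0.30. The shares were 54.5% higher and 9.09% lower, beside 14.2% and 10.6% of all genes. The chains of laminin-111, the trimer of LAMA1, LAMB1 and LAMC1 known from embryonic basement membranes, were among those that rose. LAMA1 had 47.6, 53.8 and 47.0 CPM in treated cells, against 31.3, 28.8 and 23.9 CPM in N2B27 cells and 78.2, 129.6 and 122 CPM in PXGL cells. Treated libraries were above N2B27 libraries without overlap, and both were below PXGL (treated against N2B27 log2 0.82 ± 0.17, adjusted p = 0.00334). LAMB1, the main beta chain, had 343, 358 and 362 CPM in treated cells, against 213, 209.5 and 213 CPM in N2B27 cells and 134, 161 and 169 CPM in PXGL cells. Its treated libraries exceeded all others by more than the spread within any group (1.67-fold, log2 0.74 ± 0.07, adjusted p = 1.44e-06). LAMC1, the gamma chain shared by most laminins and the most abundant chain per length, had 1011, 1064 and 1049 CPM in treated cells, against 853, 838 and 852 CPM in N2B27 cells and 406, 528 and 555 CPM in PXGL cells. Its rise was smaller, 1.23-fold (log2 0.30 ± 0.09, adjusted p = 0.0203). The LAMC1 call was lost when any of 5 libraries was left out, each N2B27 replicate and treated replicates 2 and 3, at log2 0.28 to 0.30, although the groups did not overlap.

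LAMA3 and LAMB3, an alpha and a beta chain of epithelial laminins, gave different calls, and the difference between them was not tested. LAMA3 had 33.7, 35.0 and 30.9 CPM in treated cells, against 23.3, 22.4 and 23.7 CPM in N2B27 cells and 3.29, 3.40 and 3.55 CPM in PXGL cells. It was lowest in PXGL and highest in treated cells, without overlap (treated against N2B27 log2 0.52 ± 0.10, adjusted p = 0.000678). LAMB3 had 28.3, 26.8 and 25.8 CPM in treated cells, against 27.2, 26.6 and 28.7 CPM in N2B27 cells and 38.7, 41.1 and 41.0 CPM in PXGL cells. Treated and N2B27 libraries of LAMB3 overlapped and it was not called (log2 -0.03 ± 0.09, adjusted p = 0.85).

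LAMB2, the beta chain of neuromuscular and kidney laminins, was the 1 laminin chain that fell. It had 49.04, 42.9 and 48.0 CPM in treated cells, against 65.0, 63.0 and 59.2 CPM in N2B27 cells and 82.0, 98.4 and 97.9 CPM in PXGL cells. The treated libraries were the lowest of the 3 groups (log2 -0.42 ± 0.09, adjusted p = 0.00176). LAMC3, a less common gamma chain, had 37.1, 35.8 and 33.0 CPM in treated cells, against 25.6, 25.9 and 27.9 CPM in N2B27 cells and 59.6, 61.2 and 62.7 CPM in PXGL cells. It was higher in treated than in N2B27 cells and highest in PXGL (log2 0.42 ± 0.08, adjusted p = 0.00142). LAMA5, the alpha chain of the laminins that pluripotent cells bind best, had 320.1, 309 and 303 CPM in treated cells, against 296, 272 and 285 CPM in N2B27 cells and 266, 331 and 359.6 CPM in PXGL cells. It was not called (log2 0.13 ± 0.09, adjusted p = 0.303), but the treated libraries were above the N2B27 libraries and without PXGL replicate 1 it passed at log2 0.13, adjusted p = 0.00736. LAMA2 and LAMA4 did not pass, and LAMB4 was not tested.

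Per transcript length the laminin mix also differed. Summed over the 5 alpha chains, the level was 99.9 ± 1.93 TPM, a count scaled to transcript length and library size, in treated, 83.4 ± 3.25 in N2B27 and 110.9 ± 26.1 in PXGL cells (SD, n = 3). LAMA5 gave 72.1% of it in treated, 77.0% in N2B27 and 66.1% in PXGL cells, and LAMA1 gave 13.6% in treated, 8.97% in N2B27 and 27.03% in PXGL cells. Beta chains summed to 201.1 ± 3.90 TPM in treated, 139.7 ± 1.001 in N2B27 and 137.7 ± 22.1 in PXGL cells. LAMB1 made up 80.9% of the beta chains in treated cells, 67.9% in N2B27 and 51.1% in PXGL cells, with LAMB2 second in each group. The large SDs in PXGL come with replicate 1, which was the lowest PXGL library for the summed alpha chains and the summed beta chains.

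Set against PXGL, N2B27 cells had 5 laminin chains higher, 4 lower and 2 not called, and 5 higher and 6 lower without PXGL replicate 1. With all libraries, 27.3% of all genes were called higher in this comparison and 28.7% lower. LAMA3 rose most of the named chains, 6.76-fold (log2 2.76 ± 0.12, adjusted p = 7.02e-12, and 2.73 without PXGL replicate 1). LAMC1 had a log2 fold change of 0.77 ± 0.09, adjusted p = 1.48e-06, and 0.65 without PXGL replicate 1. LAMB1 had 0.45 ± 0.07, adjusted p = 7.39e-05, and 0.36 without PXGL replicate 1. These 3 were higher in N2B27 cells with and without PXGL replicate 1. LAMA1 fell to 31.3, 28.8 and 23.9 CPM in N2B27 cells, against 78.2, 129.6 and 122 CPM in PXGL cells (log2 -1.97 ± 0.17, adjusted p = 5.29e-07, and -2.17 without PXGL replicate 1). LAMC3 had -1.21 ± 0.08, adjusted p = 2.19e-09, and -1.23 without PXGL replicate 1. LAMB2 had -0.57 ± 0.08, adjusted p = 2.2e-05, and -0.65 without PXGL replicate 1. LAMB3 had -0.55 ± 0.08, adjusted p = 3.43e-05, and -0.58 without PXGL replicate 1. LAMA5 was not called at -0.16 ± 0.09, adjusted p = 0.113, and -0.28 without PXGL replicate 1, and passed as lower without that library (adjusted p = 1.22e-07).

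Of the 5 tested proteins that link the networks, 2 rose with EPZ-6438, the nidogens NID1 and NID2, and none fell. Over all genes 14.2% were called higher and 10.6% lower. Without PXGL replicate 1, 4 rose, since HSPG2 and AGRN then passed too. NID1, which bridges laminin and type IV collagen, had 72.5, 67.6 and 73.7 CPM in treated cells, against 44.5, 40.2 and 38.1 CPM in N2B27 cells and 16.3, 27.3 and 28.6 CPM in PXGL cells. The groups did not overlap and stood in the order treated, N2B27, PXGL (1.74-fold, log2 0.80 ± 0.15, adjusted p = 0.0011). NID2, its relative, had 4.16, 3.28 and 4.81 CPM in treated cells, against 2.30, 1.12 and 2.07 CPM in N2B27 cells and 1.21, 3.07 and 3.67 CPM in PXGL cells. It was called higher in treated than in N2B27 cells (log2 1.15 ± 0.36, adjusted p = 0.0282), but lost the call without any of 4 libraries, N2B27 replicates 2 and 3 and treated replicates 1 and 3, at log2 0.90 to 1.25. Exons of NID2 overlap those of RTRAF on the other strand, which had 179.1 CPM in treated, 192.7 in N2B27 and 138.1 in PXGL cells. Strandedness is not stated, and the part of RTRAF reads in the low NID2 values was not tested.

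HSPG2, which encodes perlecan, had 13.4, 10.8 and 14.2 CPM in treated cells, against 9.68, 9.91 and 10.1 CPM in N2B27 cells and 11.4, 24.8 and 26.2 CPM in PXGL cells. It has the longest transcript of the members, 14327 bases, and PXGL replicate 1 had less than the other PXGL libraries by more than any spread within the N2B27 groups. HSPG2 was not called (log2 0.37 ± 0.26, adjusted p = 0.337), and passed without that library (log2 0.36, adjusted p = 0.0207) and when only the treated and N2B27 libraries were fitted (log2 0.37, adjusted p = 0.0335). AGRN, which encodes agrin, had 150.1, 144 and 143 CPM in treated cells, against 122, 119 and 130.2 CPM in N2B27 cells and 140.1, 187 and 189.5 CPM in PXGL cells. Treated libraries were above N2B27 libraries without overlap, yet the test was not passed (log2 0.24 ± 0.09, adjusted p = 0.0747). AGRN passed when only the treated and N2B27 libraries were fitted (log2 0.24, adjusted p = 2.98e-05), without PXGL replicate 1 (log2 0.23, adjusted p = 3.08e-05) and without PXGL replicate 3 (log2 0.23, adjusted p = 0.0462). COL18A1, the source of endostatin, had 121, 108 and 112 CPM in treated cells, against 105, 112 and 109 CPM in N2B27 cells and 25.4, 27.4 and 31.8 CPM in PXGL cells. Treated and N2B27 libraries overlapped (log2 0.06 ± 0.08, adjusted p = 0.62), and both groups were far above PXGL.

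Relative to PXGL cells, COL18A1 was 3.85-fold higher in N2B27 cells (log2 1.95 ± 0.08, adjusted p = 7.86e-12, and 1.88 without PXGL replicate 1). NID1 was also higher, at log2 0.77 ± 0.15, adjusted p = 0.000686, and 0.55 without PXGL replicate 1. AGRN was lower, at log2 -0.47 ± 0.09, adjusted p = 0.000351, and -0.60 without PXGL replicate 1. HSPG2 was lower, at log2 -1.07 ± 0.25, adjusted p = 0.00249, and -1.37 without PXGL replicate 1. NID2 was not called at log2 -0.53 ± 0.37, adjusted p = 0.238, and -0.87 without PXGL replicate 1, and passed as lower without that library (adjusted p = 0.0125).

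**Figure D3:**
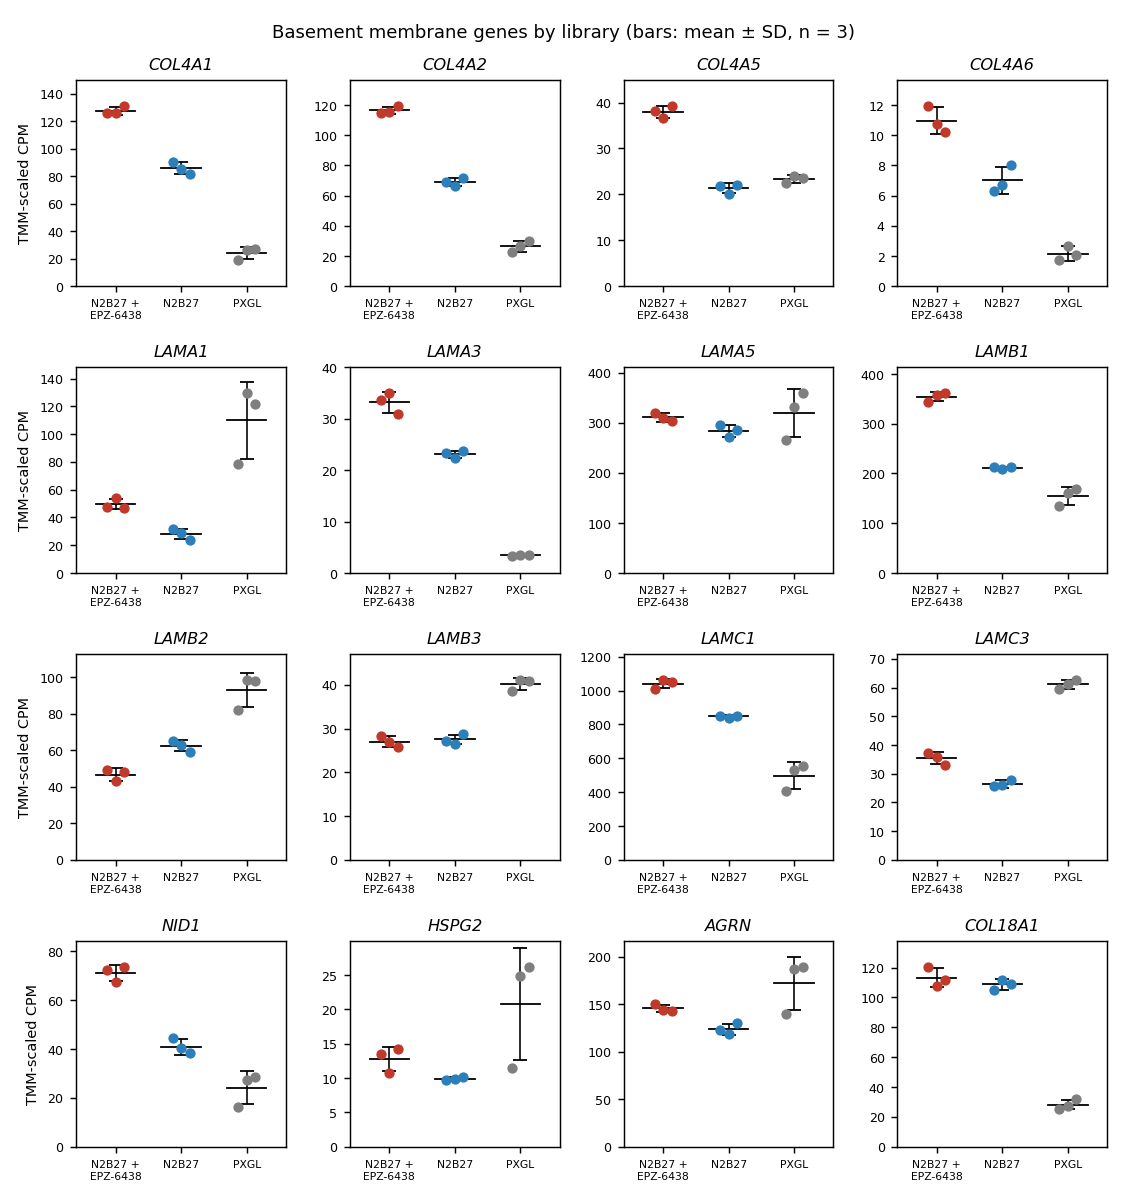
TMM-scaled CPM (vertical, from 0, own scale per gene) of 16 basement membrane genes in treated, N2B27 and PXGL cells (horizontal, left to right). Points are libraries, and bars are the mean ± SD of 3. Treated cells are highest for COL4A1, COL4A2, LAMB1 and NID1, and PXGL cells are highest for LAMA1, LAMB2 and LAMC3.

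Over all basement membrane members, 12 of 20 tested rose with EPZ-6438, 1 fell and 7 did not pass, with a median log2 fold change of 0.44. The shares were 60.0% higher and 5.0% lower, beside 14.2% and 10.6% of all genes. Without PXGL replicate 1, 15 rose and 1 fell. The hypoblast markers, which mark the primitive endoderm of the human embryo, differed in the same comparison. They summed to 64.9 to 70.8 CPM in treated, 30.2 to 31.8 CPM in N2B27 and 45.4 to 58.4 CPM in PXGL cells. Of the 12 hypoblast markers, 6 were tested in treated against N2B27 cells and 5 of those were higher, with a median log2 fold change of 1.24. APOA1 and TTR were at 0 in every group. NID2, which is also a member, is among the 5. A rise was not particular to this list. The mesendoderm list of 6 genes summed to 151.9 to 163.0 CPM in treated, 23.3 to 27.6 in N2B27 and 10.5 to 12.5 in PXGL cells. All 5 tested mesendoderm genes were higher in treated than in N2B27 cells, with a median of 2.32, and GSC was at 0 in PXGL. The 9 trophectoderm and amnion markers summed to 37.9 to 46.8 CPM in treated, 13.9 to 16.1 in N2B27 and 14.7 to 18.2 in PXGL cells, with VTCN1 at 0 throughout. Of the 8 tested, 5 were higher in treated than in N2B27 cells and none lower, with a median of 1.70. The 6 endothelial markers, of cells that also lay down basement membrane, summed to 45.1 to 49.1 CPM in treated, 53.0 to 56.9 in N2B27 and 37.0 to 46.4 in PXGL cells. Of the 4 tested, 1 was higher and 2 were lower in treated than in N2B27 cells. The part of other cell types in the matrix changes was not tested.

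The fibrillar collagens split. Of 10 tested, 4 rose with EPZ-6438, 2 fell and 4 did not pass, with a median log2 fold change of 0.53. The 2 that fell were the chains of type I collagen, the main fibril of skin and bone. COL1A1 had 19.1, 18.4 and 20.2 CPM in treated cells, against 25.8, 25.2 and 25.8 CPM in N2B27 cells and 11.3, 16.7 and 13.99 CPM in PXGL cells. Treated libraries were below N2B27 libraries without overlap (log2 -0.42 ± 0.12, adjusted p = 0.0196). COL1A2, the other type I chain, had 22.5, 23.5 and 23.9 CPM in treated cells, against 27.9, 29.8 and 27.4 CPM in N2B27 cells and 2.36, 2.30 and 2.78 CPM in PXGL cells. It too was lower in treated cells (log2 -0.28 ± 0.10, adjusted p = 0.0485), and very low in PXGL. Both calls were close to the threshold. COL1A1 lost its call without any of 4 libraries (N2B27 replicates 1 and 3, treated replicates 1 and 2) at log2 -0.41 to -0.38. COL1A2 lost it without any of 7 libraries, all but PXGL replicates 1 and 3, at log2 -0.31 to -0.25, with DESeq2's Wald test, with no filter and with the stricter filter.

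The chains that rose were those of types II and V, with a smaller change in COL27A1. COL2A1, the cartilage collagen, had 5.70, 6.02 and 5.02 CPM in treated cells, against 2.37, 1.27 and 1.27 CPM in N2B27 cells and 0.165, 0.329 and 0.222 CPM in PXGL cells. Its levels were low, and the 3 groups did not overlap (3.41-fold, log2 1.77 ± 0.29, adjusted p = 0.000237). COL5A1, a chain of the type V collagen that starts fibrils, had 25.4, 23.7 and 24.7 CPM in treated cells, against 14.5, 13.9 and 13.6 CPM in N2B27 cells and 21.1, 27.4 and 29.4 CPM in PXGL cells. N2B27 cells were the lowest group (treated against N2B27 log2 0.81 ± 0.12, adjusted p = 0.000107). COL5A2, its partner chain, had 7.98, 6.26 and 8.95 CPM in treated cells, against 2.99, 2.53 and 3.33 CPM in N2B27 cells and 2.41, 2.90 and 1.61 CPM in PXGL cells. Only the treated libraries stood apart (2.61-fold, log2 1.38 ± 0.23, adjusted p = 0.000318). COL27A1, a fibrillar collagen of cartilage, had 40.4, 38.4 and 45.3 CPM in treated cells, against 34.7, 32.9 and 32.3 CPM in N2B27 cells and 47.7, 64.9 and 62.9 CPM in PXGL cells. It passed narrowly (log2 0.31 ± 0.11, adjusted p = 0.0494) and lost the call without any 1 of the 6 libraries compared, at log2 0.24 to 0.36, and with DESeq2. COL11A1, a chain of a cartilage fibril, had 1.01, 1.58 and 0.881 CPM in treated cells, against 0.279, 0.492 and 1.27 CPM in N2B27 cells and 0.0549, 0.657 and 0.389 CPM in PXGL cells. Its libraries overlapped and it was not called (log2 0.76 ± 0.61, adjusted p = 0.396). COL3A1, the partner of type I collagen in soft tissue, was below the filter, with 0.134, 0.0608 and 0.136 CPM in treated cells, against 0, 0 and 0 CPM in N2B27 cells and 0.0549, 0.219 and 0.0555 CPM in PXGL cells. All but 1 of those values were under the level of 3 counts.

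The summed fibroblast markers, but not each of them, stood in the same order of groups as type I collagen. The 12 markers summed to 112.8 to 124.1 CPM in treated, 186.8 to 214.1 in N2B27 and 10.7 to 13.7 in PXGL cells, in treated and N2B27 cells most of it from THY1 and TAGLN. Of the 7 tested in treated against N2B27 cells, THY1 and TAGLN were lower, TWIST1, PRRX1 and TNC were higher and 2 were not called, with a median log2 fold change of 0.18. FAP was at 0 in every group, DCN was at 0 in treated and N2B27 cells, and LUM was at 0 in N2B27 and PXGL cells. Their part in the type I collagen levels was not tested. Against PXGL, 3 fibrillar collagens rose in N2B27 cells, 2 fell and 5 did not pass, with the same counts without PXGL replicate 1. Over all genes, 27.3% were called higher in that comparison and 28.7% lower. COL1A2 was 11.4-fold higher in N2B27 cells (log2 3.51 ± 0.13, adjusted p = 8.82e-13, and 3.48 without PXGL replicate 1). COL1A1 rose less, at log2 0.87 ± 0.12, adjusted p = 1.6e-05, and 0.74 without PXGL replicate 1. COL2A1 had 2.73 ± 0.42, adjusted p = 3.63e-05, and 2.53 without PXGL replicate 1. COL5A1 and COL27A1 were the 2 lower genes, COL5A1 at log2 -0.89 ± 0.12, adjusted p = 9.41e-06, and -1.02 without PXGL replicate 1. COL27A1 stood at log2 -0.81 ± 0.11, adjusted p = 7.9e-06, and -0.94 without PXGL replicate 1. COL5A2 was not called (0.35 ± 0.25, adjusted p = 0.249, and 0.39 without PXGL replicate 1), and neither was COL11A1 (0.88 ± 0.69, adjusted p = 0.286, and 0.38 without PXGL replicate 1).

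**Figure D4:**
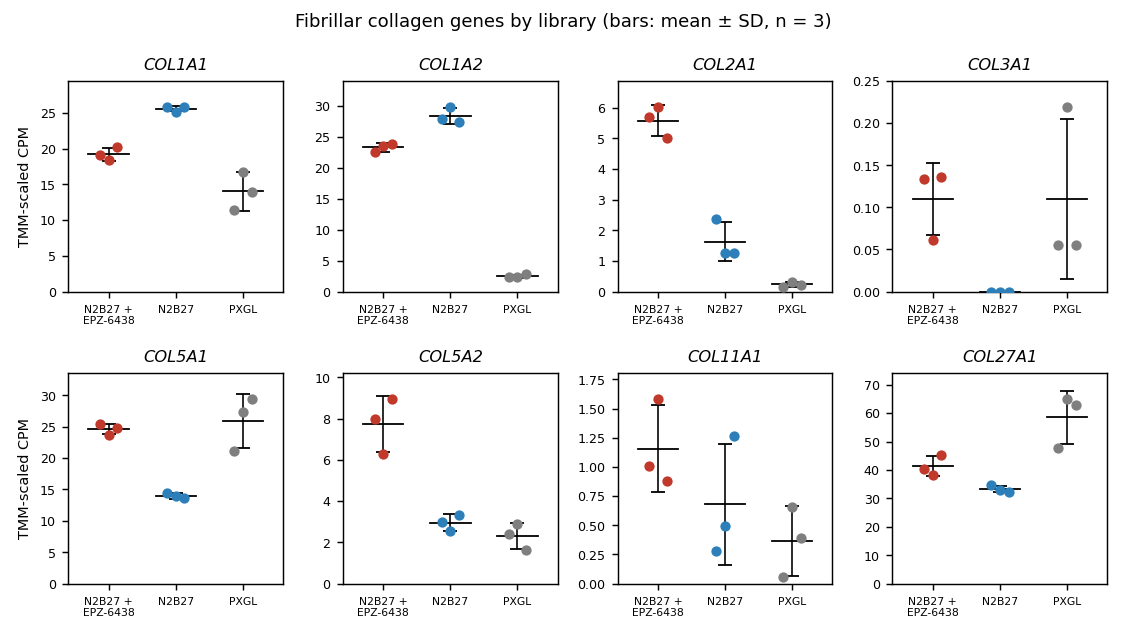
TMM-scaled CPM (vertical, from 0, own scale per gene) of 8 fibrillar collagen genes in treated, N2B27 and PXGL cells (horizontal, left to right). Points are libraries, and bars are the mean ± SD of 3. COL1A1 and COL1A2 are highest in N2B27 cells, COL2A1 and COL5A2 in treated cells, and COL27A1 in PXGL cells.

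Set side by side per length, basement membrane transcripts far exceeded fibrillar ones in all groups. The 24 basement membrane genes summed to 969.6, 977.5 and 986.8 TPM in treated cells, against 740.2, 720.7 and 736.8 TPM in N2B27 cells and 441.5, 619.8 and 660.0 TPM in PXGL cells. The 11 fibrillar genes summed to 48.3, 47.5 and 51.5 TPM in treated cells, against 42.7, 42.5 and 42.0 TPM in N2B27 cells and 28.7, 42.6 and 42.0 TPM in PXGL cells. The ratio of the sums was 20.1, 20.6 and 19.2 in treated cells, against 17.3, 17.0 and 17.5 in N2B27 cells and 15.4, 14.6 and 15.7 in PXGL cells. The ratios of the groups did not overlap, and PXGL replicate 1, although lowest in both sums, had a ratio between those of its group. In treated against N2B27 cells the median log2 fold change was 0.44 for basement membrane and 0.53 for fibrillar genes. When only genes with 10 CPM in at least 3 libraries were tested, it was 0.46 for 18 basement membrane and 0.035 for 4 fibrillar genes. The difference between the classes was not tested. LAMC1 alone made up 35.7% of the basement membrane sum in treated, 37.9% in N2B27 and 28.8% in PXGL cells. The leading fibrillar gene was COL27A1 in treated cells, at 28.6% of the sum, COL1A2 in N2B27 cells at 31.9%, and COL27A1 in PXGL cells at 52.2%.

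Fibril-associated collagens, which sit on the surface of fibrils, gave 2 higher, 1 lower and 4 uncalled genes of 7 tested in treated against N2B27 cells. The shares were 28.6% higher and 14.3% lower, beside 14.2% and 10.6% of all genes. COL9A3, a chain of the type IX collagen of cartilage and eye, made up 86.6% of the class per length in treated, 92.4% in N2B27 and 93.6% in PXGL cells. It had 104, 103 and 105 CPM in treated cells, against 152, 157 and 156 CPM in N2B27 cells and 156, 137 and 129.9 CPM in PXGL cells. COL9A3 was the gene that fell (log2 -0.58 ± 0.07, adjusted p = 1.08e-05), and treated libraries did not overlap the others. COL12A1, a collagen of tendon and muscle fibrils, had 8.65, 11.1 and 9.63 CPM in treated cells, against 4.94, 5.41 and 2.93 CPM in N2B27 cells and 0, 0.329 and 0 CPM in PXGL cells. It was near 0 in PXGL and higher in treated than in N2B27 cells (log2 1.15 ± 0.29, adjusted p = 0.00809). The call was lost without N2B27 replicate 3, at log2 0.92. COL14A1, another fibril-surface collagen, had 2.55, 3.28 and 2.71 CPM in treated cells, against 3.55, 1.05 and 2.601 CPM in N2B27 cells and 5.65, 7.78 and 6.33 CPM in PXGL cells. Treated and N2B27 libraries overlapped (log2 0.25 ± 0.32, adjusted p = 0.622). COL21A1 had 10.7, 10.2 and 8.68 CPM in treated cells, against 9.68, 8.58 and 9.20 CPM in N2B27 cells and 4.004, 4.05 and 4.44 CPM in PXGL cells. It was likewise not called (log2 0.10 ± 0.15, adjusted p = 0.651). Against PXGL, COL12A1 was higher in N2B27 cells at log2 5.23 ± 0.54, adjusted p = 4.45e-07, and 4.67 without PXGL replicate 1, with 2 of 3 PXGL libraries at 0. COL21A1 was higher, at log2 1.13 ± 0.16, adjusted p = 1.08e-05, and 1.11 without PXGL replicate 1. COL14A1 was lower, at log2 -1.45 ± 0.29, adjusted p = 0.000519, and -1.55 without PXGL replicate 1. COL9A3 was not called (0.14 ± 0.07, adjusted p = 0.0949, and 0.22 without PXGL replicate 1), and passed as higher without that library (adjusted p = 0.000172).

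The remaining collagens had the highest class median among the collagens, 0.88, with 7 of 12 tested rising in treated cells and none falling. Over all genes 14.2% were called higher there and 10.6% lower. COL17A1, the transmembrane collagen of hemidesmosomes, had 22.9, 22.4 and 27.46 CPM in treated cells, against 7.45, 5.70 and 5.40 CPM in N2B27 cells and 21.9, 21.5 and 21.0 CPM in PXGL cells. Treated and PXGL libraries were close, and N2B27 cells stood well below both (3.92-fold, log2 1.97 ± 0.14, adjusted p = 2.01e-08). COL25A1, a transmembrane collagen of neurons, had 10.1, 8.94 and 9.42 CPM in treated cells, against 1.32, 2.46 and 1.200 CPM in N2B27 cells and 0.877, 0.712 and 0.500 CPM in PXGL cells. It had the largest fold change of all members tested in this comparison, 5.70-fold (log2 2.51 ± 0.26, adjusted p = 1.96e-06). COL26A1, a little-studied secreted collagen, had 31.7, 29.3 and 29.3 CPM in treated cells, against 14.8, 19.1 and 17.5 CPM in N2B27 cells and 8.12, 9.09 and 8.50 CPM in PXGL cells. Its groups did not overlap (log2 0.81 ± 0.11, adjusted p = 4.24e-05). COL23A1, a transmembrane collagen, had 2.42, 2.55 and 1.56 CPM in treated cells, against 0.696, 1.195 and 1.0 CPM in N2B27 cells and 6.69, 6.30 and 6.50 CPM in PXGL cells. It was lowest in N2B27 cells and highest in PXGL cells (treated against N2B27 log2 1.17 ± 0.30, adjusted p = 0.00795).

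Type VI collagen forms beaded filaments near basement membranes, and its chains COL6A1 and COL6A2 lie on the same strand of chromosome 21, 93046 bases apart. COL6A1 had 57.2, 55.2 and 58.3 CPM in treated cells, against 20.3, 22.4 and 23.0 CPM in N2B27 cells and 38.6, 48.3 and 48.6 CPM in PXGL cells. N2B27 cells were the lowest group and treated cells the highest (2.596-fold, log2 1.38 ± 0.10, adjusted p = 3.16e-08). COL6A2 had 19.2, 21.9 and 21.2 CPM in treated cells, against 15.9, 14.9 and 17.5 CPM in N2B27 cells and 31.8, 31.9 and 35.5 CPM in PXGL cells. Its treated libraries lay above the N2B27 libraries but below PXGL (log2 0.37 ± 0.11, adjusted p = 0.0168), and the call was lost without any of 4 libraries, N2B27 replicates 1 and 2 and treated replicates 2 and 3, at log2 0.31 to 0.36. The difference between the changes of the 2 chains was not tested. COL7A1, which forms the anchoring fibrils under the epidermal basement membrane, had 81.2, 94.6 and 91.5 CPM in treated cells, against 88.8, 84.1 and 87.1 CPM in N2B27 cells and 16.6, 14.3 and 16.3 CPM in PXGL cells. Treated and N2B27 libraries overlapped (log2 0.04 ± 0.08, adjusted p = 0.751), and PXGL was far lower.

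Between N2B27 and PXGL cells this class gave 3 higher and 4 lower genes of 12, and 3 higher and 5 lower without PXGL replicate 1. The shares over all genes, with all libraries, were 27.3% higher and 28.7% lower. COL7A1 was 5.50-fold higher in N2B27 cells (log2 2.46 ± 0.09, adjusted p = 6.75e-13, and 2.50 without PXGL replicate 1). COL25A1 was higher, at log2 1.24 ± 0.34, adjusted p = 0.00506, and 1.44 without PXGL replicate 1. COL26A1 was higher, at log2 1.0 ± 0.12, adjusted p = 2.52e-06, and 0.96 without PXGL replicate 1. The lower genes were COL23A1, COL17A1, COL6A1 and COL6A2. COL23A1 had a log2 fold change of -2.74 ± 0.27, adjusted p = 2.28e-07, and -2.72 without PXGL replicate 1. COL17A1 had -1.80 ± 0.14, adjusted p = 1.04e-08, and -1.78 without PXGL replicate 1. COL6A1 had -1.04 ± 0.10, adjusted p = 1.6e-07, and -1.15 without PXGL replicate 1. COL6A2 had -1.04 ± 0.10, adjusted p = 2.57e-07, and -1.06 without PXGL replicate 1. The comparisons of treated with N2B27 cells and of N2B27 with PXGL cells share the N2B27 libraries, so a low N2B27 value raises one fold change and lowers the other.

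Of the matrix glycoproteins, fibronectin rose and SPARC did not pass. FN1, which encodes fibronectin and whose promoter letters are shown above, had 212, 222 and 213 CPM in treated cells, against 88.8, 87.0 and 85.9 CPM in N2B27 cells and 37.6, 54.8 and 52.5 CPM in PXGL cells. The 3 groups did not overlap, and the gap between treated and N2B27 cells was many times the spread within either (2.47-fold, log2 1.31 ± 0.10, adjusted p = 7.52e-08). In N2B27 against PXGL cells FN1 had a log2 fold change of 0.85 ± 0.10, adjusted p = 2.82e-06, and 0.70 without PXGL replicate 1. SPARC, a collagen-binding protein that is a classic product of parietal endoderm in the mouse, had 1142, 1138 and 1157 CPM in treated cells, against 1175, 1176 and 1217 CPM in N2B27 cells and 546, 511 and 475 CPM in PXGL cells. It was the most abundant member per length in all 3 groups, at 819.5 ± 11.6 TPM in treated, 829.5 ± 18.9 TPM in N2B27 and 358.8 ± 9.03 TPM in PXGL cells (SD, n = 3). Treated libraries were all below N2B27 libraries by little, and the test was not passed (log2 -0.05 ± 0.06, adjusted p = 0.572), while N2B27 was 2.33-fold above PXGL (log2 1.22 ± 0.06, adjusted p = 7.44e-11, and 1.27 without PXGL replicate 1).

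Of the 6 folding and hydroxylation genes, 1 rose with EPZ-6438, 2 fell and 3 did not pass, with a median log2 fold change of -0.02. The share called higher, 16.7%, was near the 14.2% of all genes, and 33.3% were lower, beside 10.6%. Without PXGL replicate 1, 2 rose and 2 fell. SERPINH1, the collagen chaperone, had 647, 639 and 632 CPM in treated cells, against 805, 814 and 780.3 CPM in N2B27 cells and 340.1, 305 and 296 CPM in PXGL cells. Treated libraries were below N2B27 libraries and both were well above PXGL (treated against N2B27 log2 -0.32 ± 0.06, adjusted p = 0.0011). P4HA1, a catalytic subunit of prolyl hydroxylase, had 41.3, 48.4 and 42.7 CPM in treated cells, against 63.9, 59.7 and 57.4 CPM in N2B27 cells and 84.1, 83.4 and 84.8 CPM in PXGL cells. Its groups did not overlap, with treated cells lowest (log2 -0.45 ± 0.08, adjusted p = 0.000414). P4HA2, the second such subunit, had 50.1, 45.2 and 45.2 CPM in treated cells, against 48.7, 45.4 and 43.1 CPM in N2B27 cells and 63.8, 63.9 and 60.5 CPM in PXGL cells. Treated and N2B27 libraries overlapped (log2 0.03 ± 0.08, adjusted p = 0.795).

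Lysyl hydroxylases prepare collagen for crosslinking and glycosylation. PLOD1, which acts on the helix, had 80.4, 83.0 and 81.5 CPM in treated cells, against 82.6, 81.8 and 92.2 CPM in N2B27 cells and 160.2, 158 and 165 CPM in PXGL cells. Treated and N2B27 libraries overlapped (log2 -0.07 ± 0.07, adjusted p = 0.495). PLOD2, which acts on the telopeptides of fibrillar collagens, was the enzyme that rose, with 95.4, 90.7 and 97.5 CPM in treated cells, against 67.8, 78.8 and 72.5 CPM in N2B27 cells and 128, 132 and 131 CPM in PXGL cells. N2B27 cells were its lowest group (log2 0.37 ± 0.07, adjusted p = 0.000745). PLOD3, which also adds sugars and is needed for type IV collagen secretion, had 40.4, 38.8 and 44.7 CPM in treated cells, against 35.0, 28.97 and 38.6 CPM in N2B27 cells and 30.7, 29.1 and 25.5 CPM in PXGL cells. It was not called (log2 0.27 ± 0.11, adjusted p = 0.0804), and passed without PXGL replicate 1 (log2 0.27, adjusted p = 0.012), without N2B27 replicate 3 (log2 0.37, adjusted p = 0.0445) and when only the treated and N2B27 libraries were fitted (log2 0.27, adjusted p = 0.00853). Against PXGL, SERPINH1 was 2.55-fold higher in N2B27 cells (log2 1.35 ± 0.06, adjusted p = 2.47e-11, and 1.41 without PXGL replicate 1). PLOD3 was higher by little, at log2 0.27 ± 0.11, adjusted p = 0.049, and 0.33 without PXGL replicate 1, and lost the call without any of 7 libraries, all but PXGL replicate 1 and N2B27 replicate 2, at log2 0.17 to 0.28. The other 4 enzymes were lower in N2B27 cells, and the class counts were the same without PXGL replicate 1. With all libraries, 27.3% of all genes were called higher in this comparison and 28.7% lower. PLOD1 fell most, at log2 -0.92 ± 0.07, adjusted p = 4.57e-09, and -0.92 without PXGL replicate 1. PLOD2 had -0.83 ± 0.07, adjusted p = 2.87e-08, and -0.84 without PXGL replicate 1. P4HA1 had -0.48 ± 0.08, adjusted p = 4.8e-05, and -0.48 without PXGL replicate 1. P4HA2 had -0.46 ± 0.08, adjusted p = 0.0001, and -0.44 without PXGL replicate 1.

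Among lysyl oxidases, 2 of 5 rose with EPZ-6438 and none fell, where 14.2% of all genes were called higher and 10.6% lower. LOX, the founding enzyme, had 3.56, 3.65 and 3.80 CPM in treated cells, against 1.81, 2.46 and 0.867 CPM in N2B27 cells and 8.61, 8.88 and 8.61 CPM in PXGL cells. Treated libraries lay between the lower N2B27 and the higher PXGL libraries (treated against N2B27 log2 1.10 ± 0.27, adjusted p = 0.00685). LOXL2, which crosslinks type IV collagen and had the highest level of the class per length, had 42.1, 47.9 and 45.4 CPM in treated cells, against 27.99, 25.5 and 26.2 CPM in N2B27 cells and 31.6, 31.6 and 35.5 CPM in PXGL cells. Treated cells were the highest group (log2 0.76 ± 0.09, adjusted p = 8.26e-06). LOXL3 had 25.4, 25.2 and 22.1 CPM in treated cells, against 21.3, 21.1 and 20.3 CPM in N2B27 cells and 5.16, 4.11 and 4.05 CPM in PXGL cells. Treated libraries were above N2B27 libraries but the test was not passed (log2 0.21 ± 0.11, adjusted p = 0.181). LOXL1, known for elastic fibres, had 1.74, 1.58 and 1.22 CPM in treated cells, against 0.836, 1.41 and 1.40 CPM in N2B27 cells and 7.46, 6.52 and 6.22 CPM in PXGL cells. LOXL4 had 1.41, 0.547 and 1.56 CPM in treated cells, against 0.905, 0.773 and 0.400 CPM in N2B27 cells and 0.0549, 0.0548 and 0.333 CPM in PXGL cells. Neither was called in treated against N2B27 cells (LOXL1 log2 0.32 ± 0.30, adjusted p = 0.471). LOXL4 stood at log2 0.75 ± 0.56, adjusted p = 0.366.

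All 5 lysyl oxidase genes differed between N2B27 and PXGL cells, 2 upward and 3 downward, with and without PXGL replicate 1. With all libraries, 56.0% of all genes were called in that comparison, 27.3% higher and 28.7% lower. LOXL3 was 4.70-fold higher in N2B27 cells (log2 2.23 ± 0.13, adjusted p = 3.28e-10, and 2.35 without PXGL replicate 1). LOXL4 was higher at low counts (log2 2.17 ± 0.73, adjusted p = 0.0183, and 1.80 without PXGL replicate 1) and lost the call without PXGL replicate 2 or N2B27 replicates 1 or 2, at log2 1.79 to 2.09. LOX was lower, at log2 -2.35 ± 0.25, adjusted p = 7.15e-07, and -2.35 without PXGL replicate 1. LOXL1 was lower, at log2 -2.46 ± 0.25, adjusted p = 4.34e-07, and -2.38 without PXGL replicate 1. LOXL2 was lower by less, at log2 -0.31 ± 0.09, adjusted p = 0.00816, and -0.33 without PXGL replicate 1. Summed per length, the 5 genes gave 56.4 ± 1.88 TPM in treated, 37.4 ± 0.99 TPM in N2B27 and 39.5 ± 3.02 TPM in PXGL cells (SD, n = 3). The exons of LAMB1, LAMA5, NID2, LOX, LOXL1, LOXL3, PLOD3, COL18A1 and COL9A3 overlap those of genes on the other strand that were also expressed. Those of LOXL2 overlap ENTPD4 on the same strand. Reads in these overlaps cannot be assigned with certainty.

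**Figure D5:**
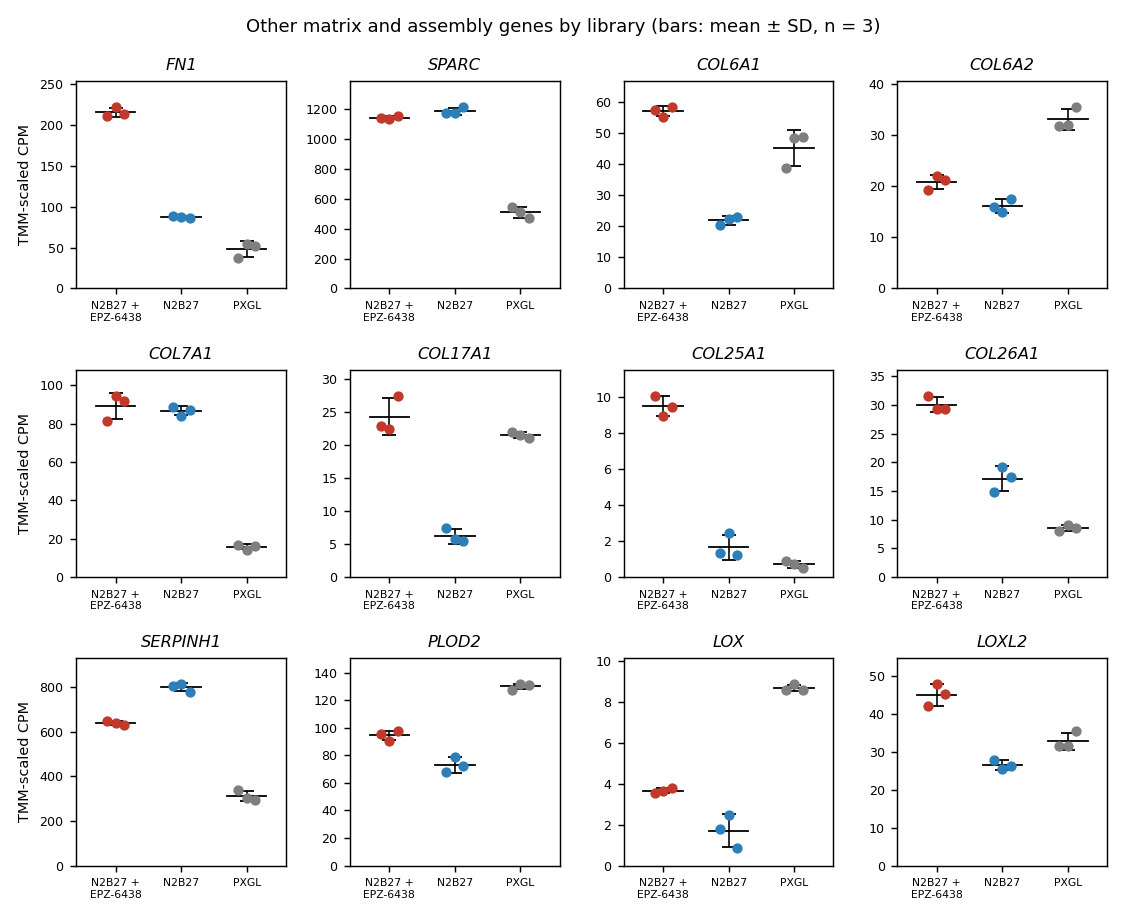
TMM-scaled CPM (vertical, from 0, own scale per gene) of 12 other matrix and assembly genes in treated, N2B27 and PXGL cells (horizontal, left to right). Points are libraries, and bars are the mean ± SD of 3. FN1, COL6A1, COL25A1, COL26A1 and LOXL2 are highest in treated cells, while COL6A1, COL6A2, COL17A1, PLOD2, LOX and LOXL2 are lowest in N2B27 cells.

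Genes of the same pathway that are not members were read from lists. The genes given with values are those of each list with the smallest adjusted p, so they do not stand for their list. In treated against N2B27 cells 14.2% of all genes were called higher and 10.6% lower. Of 15 tested genes for procollagen processing and matrix turnover, 10 rose with EPZ-6438 and 1 fell, 66.7% and 6.67%. MMP2, a gelatinase that cuts type IV collagen, had 105, 104 and 101 CPM in treated cells, against 20.5, 24.3 and 25.8 CPM in N2B27 cells and 24.6, 22.7 and 25.6 CPM in PXGL cells (log2 2.14 ± 0.09, adjusted p = 1.06e-10). MMP9, the other gelatinase, had 89.5, 79.7 and 80.2 CPM in treated cells, against 25.1, 22.9 and 20.2 CPM in N2B27 cells and 49.9, 48.9 and 52.0 CPM in PXGL cells (log2 1.87 ± 0.09, adjusted p = 3.08e-10). Both gelatinases stood apart from N2B27 cells without overlap. TIMP3, a matrix-bound inhibitor of such proteases, had 20.1, 21.6 and 21.5 CPM in treated cells, against 11, 13.01 and 11.7 CPM in N2B27 cells and 1.48, 1.04 and 1.67 CPM in PXGL cells (log2 0.82 ± 0.13, adjusted p = 0.000206). TIMP4, a related inhibitor, was the gene that fell, with 9.46, 9.37 and 10.2 CPM in treated cells, against 18.7, 17.8 and 18.5 CPM in N2B27 cells and 0.658, 1.37 and 0.666 CPM in PXGL cells (log2 -0.92 ± 0.15, adjusted p = 0.000301).

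Of 21 tested integrins and other matrix receptors, 7 rose, 4 fell and 10 did not pass. That was 33.3% higher and 19.05% lower, beside 14.2% and 10.6% of all genes. ITGB8 had 6.58, 4.08 and 5.97 CPM in treated cells, against 0.627, 0.562 and 0.467 CPM in N2B27 cells and 0.0549, 0.384 and 0.222 CPM in PXGL cells (log2 3.31 ± 0.38, adjusted p = 6.5e-06). ITGB5, like ITGB8 a beta partner of the integrin alpha V chain, had 328, 307 and 325 CPM in treated cells, against 242, 246 and 244 CPM in N2B27 cells and 310.0, 307 and 303 CPM in PXGL cells (log2 0.39 ± 0.06, adjusted p = 7.29e-05). ITGA6, the alpha chain of the main laminin receptors, had 216, 238 and 236 CPM in treated cells, against 183, 185 and 181 CPM in N2B27 cells and 122, 132 and 138 CPM in PXGL cells (log2 0.33 ± 0.06, adjusted p = 0.0011). All 3 were higher in treated than in N2B27 cells without overlap. ITGB4, the partner of ITGA6 in hemidesmosomes, fell, with 3.82, 4.13 and 3.32 CPM in treated cells, against 9.75, 8.16 and 10.3 CPM in N2B27 cells and 2.69, 2.74 and 2.89 CPM in PXGL cells (log2 -1.32 ± 0.18, adjusted p = 4.16e-05).

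Of 17 tested collagen biosynthesis genes outside the members, 4 rose and 2 fell. That was 23.5% higher and 11.8% lower, beside 14.2% and 10.6% of all genes. COLGALT1, which adds galactose to hydroxylysine, had 105, 109 and 112 CPM in treated cells, against 76.6, 74.6 and 74.4 CPM in N2B27 cells and 137, 144 and 144 CPM in PXGL cells (log2 0.53 ± 0.06, adjusted p = 7.5e-06). COLGALT2, its relative, had 2.48, 4.26 and 4.47 CPM in treated cells, against 0.696, 0.773 and 0.333 CPM in N2B27 cells and 0.548, 0 and 0.0555 CPM in PXGL cells (log2 2.63 ± 0.55, adjusted p = 0.00203). P3H2, a prolyl 3-hydroxylase that acts on type IV collagen, had 3.35, 5.66 and 3.52 CPM in treated cells, against 0.557, 0.211 and 0.200 CPM in N2B27 cells and 0.494, 0.0548 and 0.333 CPM in PXGL cells (log2 3.67 ± 0.51, adjusted p = 4.64e-05). These 3 rose, and the last 2 were low in both other groups. CRTAP, a subunit of the complex that modifies type I collagen, was lower, with 106, 109 and 106 CPM in treated cells, against 129, 137 and 134 CPM in N2B27 cells and 173, 182 and 169.5 CPM in PXGL cells (log2 -0.32 ± 0.06, adjusted p = 0.000964).

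Of 12 tested other basement membrane genes, 3 rose, 2 fell and 7 did not pass, with a median log2 fold change of 0.098. The basement membrane members had a median of 0.44 in this comparison. Among all genes 14.2% were called higher and 10.6% lower, and their median was 0.01. SMOC2, which encodes a relative of SPARC, had 1.81, 1.52 and 2.24 CPM in treated cells, against 0.0696, 0.211 and 0.333 CPM in N2B27 cells and 1.48, 1.42 and 0.777 CPM in PXGL cells (log2 3.12 ± 0.53, adjusted p = 0.000333). TGFBI, a collagen-binding adhesion protein, had 3.62, 4.44 and 3.32 CPM in treated cells, against 0.975, 0.984 and 2.40 CPM in N2B27 cells and 1.10, 0.767 and 1.11 CPM in PXGL cells (log2 1.38 ± 0.34, adjusted p = 0.00739). Both rose at low levels. NPNT, the integrin ligand nephronectin, fell, with 8.52, 11.1 and 11.2 CPM in treated cells, against 17.8, 15.5 and 13.5 CPM in N2B27 cells and 3.46, 3.67 and 4.72 CPM in PXGL cells (log2 -0.60 ± 0.16, adjusted p = 0.01). MATN2, a matrilin, also fell, with 1.54, 1.09 and 1.02 CPM in treated cells, against 2.37, 3.09 and 1.87 CPM in N2B27 cells and 1.65, 2.46 and 2.28 CPM in PXGL cells (log2 -0.999 ± 0.33, adjusted p = 0.0347). Of 15 tested other interstitial matrix genes, 2 rose, 2 fell and 11 did not pass. At 13.3% higher and 13.3% lower, this list was near the 14.2% and 10.6% of all genes. TNC, which encodes tenascin C, had 7.11, 8.15 and 5.76 CPM in treated cells, against 1.95, 1.41 and 2.20 CPM in N2B27 cells and 0, 0 and 0 CPM in PXGL cells (log2 1.91 ± 0.27, adjusted p = 9.32e-05). FBN2, a fibrillin of the embryo, had 25.3, 27.7 and 25.3 CPM in treated cells, against 21.2, 15.8 and 16.6 CPM in N2B27 cells and 5.26, 9.42 and 7.996 CPM in PXGL cells (log2 0.55 ± 0.16, adjusted p = 0.0175). TNC was at 0 in all PXGL libraries. The thrombospondins fell, THBS2 with 2.147, 2.37 and 3.59 CPM in treated cells, against 4.74, 6.19 and 5.54 CPM in N2B27 cells and 0.274, 0.548 and 0.0555 CPM in PXGL cells (log2 -1.02 ± 0.31, adjusted p = 0.0241). THBS1 had 16.3, 17.1 and 17.1 CPM in treated cells, against 21.0, 22.5 and 23.4 CPM in N2B27 cells and 0, 0 and 0.167 CPM in PXGL cells (log2 -0.41 ± 0.14, adjusted p = 0.0466).

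Across the whole family, N2B27 and PXGL cells differed in both directions. In N2B27 against PXGL cells 25 of 62 members were higher, 21 lower and 16 not called. Of all genes 56.0% were called, 27.3% higher and 28.7% lower, and of the tested members 40.3% were higher and 33.9% lower. Their median log2 fold change was 0.05, beside -0.03 over all genes. Basement membrane genes gave 10 higher, 6 lower and 4 uncalled, with a median of 0.16, and fibrillar genes a median of 0.30. Without PXGL replicate 1, 28 members were higher, 25 lower and 12 not called, with 8 not tested. Among those called higher were COL9A1 and COL16A1, which were below the filter with all libraries and stayed under 1 CPM. Basement membrane genes without that library gave 10 higher and 9 lower, and the fibrillar median was 0.38. The basement membrane median was 0.10 over the genes tested with all libraries. COL4A4, which passed the filter only without that library, is not in this median. With COL4A4 included the median was the value of LAMB1, 0.36. The pathway lists gave 11 higher and 4 lower of 21 receptors, 6 and 1 of 12 other basement membrane genes, 7 and 3 of 15 interstitial genes, 4 and 6 of 15 turnover genes, and 3 and 7 of 17 biosynthesis genes.

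Treated cells were also set directly against PXGL cells, a comparison that shares libraries with both others. Here 31 members were higher, 18 lower and 13 not called, where 56.1% of all genes were called, 28.1% higher and 28.0% lower. The median log2 fold change was 0.50 over members, 0.89 over basement membrane genes and 0.37 over fibrillar genes. Without PXGL replicate 1, 31 were higher, among them COL16A1 from below the filter, and 20 lower. The fibrillar median was 0.38, and the basement membrane median was 0.81 over the genes tested with all libraries. With COL4A4 included the basement membrane median was the value of COL4A5, 0.68. The 4 tested type IV collagen chains were higher, and 4 were higher without that library too. COL4A1 was 5.32-fold higher (log2 2.41 ± 0.10, adjusted p = 7.42e-12, and 2.26 without PXGL replicate 1). COL4A5 was higher at log2 0.70 ± 0.09, adjusted p = 3.36e-06, and 0.68 without PXGL replicate 1. FN1 was 4.46-fold higher (log2 2.16 ± 0.10, adjusted p = 3.8e-11, and 2.01 without PXGL replicate 1). COL17A1 was not called, at log2 0.18 ± 0.12, adjusted p = 0.223, and 0.19 without PXGL replicate 1, and COL5A1 was not called, at log2 -0.08 ± 0.11, adjusted p = 0.59, and -0.21 without PXGL replicate 1. LAMA1 was lower in treated than in PXGL cells, at log2 -1.15 ± 0.16, adjusted p = 4.75e-05, and -1.34 without PXGL replicate 1. COL11A1 was called higher at log2 1.64 ± 0.64, adjusted p = 0.0383, and 1.14 without PXGL replicate 1, and the call was lost without that library and, at log2 1.35 to 1.80, without PXGL replicate 3, N2B27 replicate 2 or any treated replicate.

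The 11 members below the filter were COL3A1, COL4A3, COL4A4, COL6A5, COL8A1, COL9A1, COL10A1, COL15A1, COL16A1, COL19A1 and LAMB4. Their highest value in any library was 0.05 to 1.06 CPM. Of the remaining tested members, COL20A1 and COL6A3 rose with EPZ-6438. The other members uncalled in treated against N2B27 cells were COL5A3, COL6A6, COL8A2, COL9A2, COL11A2, COL13A1, COL22A1, COL24A1, COL28A1, LAMA2 and LAMA4. The highest of these were LAMA2 and COL9A2, and the rest stayed under 5 CPM in every library. Some of the remaining members did differ from PXGL cells. LAMA4 and COL22A1 were called higher in both N2B27 and treated cells, and COL6A3 higher in treated cells. COL20A1 was called lower in N2B27 cells and COL8A2 lower in treated cells.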

How the data were processed

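RNA-seq of 9 H1 libraries was analysed. The authors deposited 1 table of expected counts per gene, which are estimates, and 7.13% to 8.09% of its values per library were not whole. Per the labels' protocols, total RNA came from a Trizol extraction and rRNA was removed with a depletion kit, while the molecule label names polyA RNA. Depletion keeps unspliced and non-polyadenylated RNA, and which of these applies was not settled. The submitters' processing notes name Trim Galore, STAR 2.7.6a, DESeq2 and hg38. The counting program, annotation and strandedness are not stated in the sources used here. Nothing says that replicates were separate cultures, so a p-value speaks of the spread among these libraries, possibly a technical one.

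Expected counts were rounded, and all libraries were fitted together in edgeR 4.0.16 (R 4.3.3) with TMM scaling, its default expression filter by group and a robust quasi-likelihood test. Benjamini-Hochberg adjustment ran over 15179 genes, and a call is an adjusted p under 0.05 with no fold threshold. Fold changes are log2 ± SE, with the SE taken as the fold change divided by the square root of F. CPM are TMM-scaled. TPM-like levels, per length of the longest coding GENCODE 29 transcript, cover the 36547 of 40332 symbols that matched. Replicate pairs differed by more than sampling noise (chi-square over its degrees of freedom at least 2.57), so each library was kept. The pairs with PXGL replicate 1 were the furthest apart, at 19.6 with replicate 2 and 26.3 with replicate 3. Floors of 3 counts cover counting error only. The method was tested on simulated data. Named members came from a list and from a rule: adjusted p under 0.05 in treated against N2B27 or in N2B27 against PXGL cells, groups without overlap and at least 5 CPM in the higher group. Members outside both are named without statistics, and 1 member counted in the totals is not reported by itself here. Pathway genes were at most 4 a list, by adjusted p. Members and lists were chosen with earlier results of these data known. Alternatives were DESeq2 1.42.0 (size factors and Wald test), no filter, a filter of 10 CPM in 3 libraries, unrounded counts, 2 groups only, a replicate block and leaving out each library.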

Additional observations from a re-analysis of the deposited data

How the results depend on the processing

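No fold change of a named member changed sign in 2313 recomputed values: 2227 kept direction and side of the threshold, 71 lost the call and 15 gained one. Leaving out 1 library gave 24 to 34 members called higher and 4 to 6 lower in treated against N2B27 cells. For N2B27 against PXGL cells the counts were 23 to 28 and 20 to 25, and for treated against PXGL cells 30 to 32 and 15 to 20. All genes called in treated against N2B27 cells numbered 3752, and 5641 with only those groups fitted and 5770 without PXGL replicate 1. Medians moved with the filter, which changes the genes counted. With no filter the basement membrane median was 0.31 in treated against N2B27 and 0.66 in treated against PXGL cells, and the fibrillar median was 0.70 in treated against N2B27 and 0.28 in treated against PXGL cells. With the stricter filter the fibrillar median was 0.035 in treated against N2B27 cells, 0.0091 in N2B27 against PXGL cells and 0.19 in treated against PXGL cells. Leaving out 1 library gave basement membrane medians of 0.40 to 0.47 in treated against N2B27 cells, 0.10 to 0.22 in N2B27 against PXGL cells and 0.81 to 1.04 in treated against PXGL cells. Fibrillar medians were then 0.36 to 0.62 in treated against N2B27 cells, 0.092 to 0.38 in N2B27 against PXGL cells and 0.32 to 0.45 in treated against PXGL cells. Without PXGL replicate 1, COL4A4, COL9A1 and COL16A1 also passed the filter and enter the member counts. COL4A4 is not in the basement membrane medians against PXGL. Same-numbered libraries showed no sign of deviating together (correlations -0.026 to 0.037). With 3 libraries a group this cannot exclude that the numbers pair them, which is not known. With the replicate block 3696 genes were called in treated against N2B27 cells, and COL1A2 there (adjusted p = 0.0646) and PLOD3 in N2B27 against PXGL cells (adjusted p = 0.0522) lost their calls. Depth limits the members under about 1 CPM.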
